A study of Mus musculus with 4 samples.

Results

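Chaperones that fold proteins outside the endoplasmic reticulum (ER) were examined in mouse livers labelled as lacking Ern1 in the liver. The set holds 48 genes chosen by family and compartment, namely heat shock proteins of the cytosol and of mitochondria, their J domain and BAG co-chaperones, the CCT chaperonin, prefoldin and the mitochondrial proteases Lonp1, Clpp and Clpx. All 48 genes were found among the 25572 loci with values in the authors' deposited table, 45 as loci that name no other gene and 3 in combined loci that list several genes (Stub1, Pfdn5 and Clpp). By annotation, 8 of these 45 loci span another whole coding gene (Hspa1a, Dnajb6, Tcp1, Cct7, Cct8, Pfdn2, Trap1 and Lonp1). Whether reads of that gene enter their values is not stated. The libraries came from liver of 8-week-old C57BL/6J mice, 2 from mice labelled Ern1-LKO, with a liver-specific Ern1 knockout, and 2 from wild-type (WT) mice that served as their controls. The labels do not name the promoter or enzyme that removed Ern1. Expression is given as the authors' FPKM (fragments scaled by transcript length and by library size), with 1 value for each genotype. The spread between mice is therefore not shown, the read depth is unknown, and either library of a genotype could carry a difference.

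Proteins made in the cytosol fold with the help of HSP70 and HSP90, ATP-driven chaperones that J proteins, BAG proteins and other partners load and unload, and actin and tubulin pass through prefoldin to the ring-shaped CCT chaperonin. Mitochondria hold their own HSP70, HSP60 with its lid HSP10, and an HSP90 called Trap1. The transcription factor HSF1 induces many of these genes when cytosolic proteins unfold. The ER has separate relatives of the same families, and these answer to the unfolded protein response, of which IRE1α, the product of Ern1, is a sensor that splices Xbp1 mRNA.

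Ern1 itself was at 30.2 FPKM in Ern1-LKO livers and 21.4 FPKM in WT livers, with q = 0.172 for a log2 fold change of 0.50 in the authors' deposited table. Whole-gene FPKM includes reads from exons that a partial deletion would leave in place, so it does not check the genotype labels. The tissue label matched its markers: all 8 hepatocyte genes examined were abundant in both genotypes, from 294 to 10627 FPKM in Ern1-LKO livers and from 318 to 11069 FPKM in WT livers. Skeletal muscle markers were also detected. The 6 markers summed to 86.1 FPKM in Ern1-LKO livers and 76.8 FPKM in WT livers, with none listed at 0.

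Of the 48 chaperone genes, 1 was lower in Ern1-LKO livers and 0 were higher by the authors' q under 0.05, against 2.74% of all 13320 tested loci called in either direction (1.16% lower and 1.58% higher). The single call was Bag3. Its share of the set, 2.08%, was near the background. The role groups below hold few genes, so 0 calls in a group cannot be told from that background. At an unadjusted p under 0.05 the counts were 5 lower and 0 higher in the authors' deposited table, where 4.53% of tested loci were lower and 5.74% higher. All 48 genes had been tested by the authors, and none was below 1 FPKM in both genotypes.

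The median difference of the 48 genes was -0.03 on the log2(FPKM + 1) scale. The same median was -0.01 over all tested loci and -0.03 over tested loci that reach 5 FPKM. Of the 48 genes, 21 had a log2 fold change above 0 and 27 below in the authors' deposited table, and 38 lay within 0.15 of 0. The median absolute log2 fold change was 0.08 for the chaperones, 0.16 over all tested loci and 0.12 over tested loci that reach 5 FPKM. An SE for each fold change was derived from the authors' test statistic, and it ran between 0.15 and 0.43 over the set, the largest belonging to Tcp1. The 95% interval lay inside a 2-fold change in either direction for all 48 genes, against 77.9% of tested loci and 93.6% of those that reach 5 FPKM. The set is more abundant than both comparators, with a median of 45.4 FPKM (mean of the genotypes), against 5.01 and 15.3 FPKM. Its median SE was 0.17, against 0.21 and 0.18. The part of abundance in these shares was not tested. Inside a tighter bound of 0.5 on the log2 scale lay the intervals of 36 of the 48. In a bulk liver sample fewer cells of a type and less RNA per cell cannot be told apart.

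**Figure D1:**
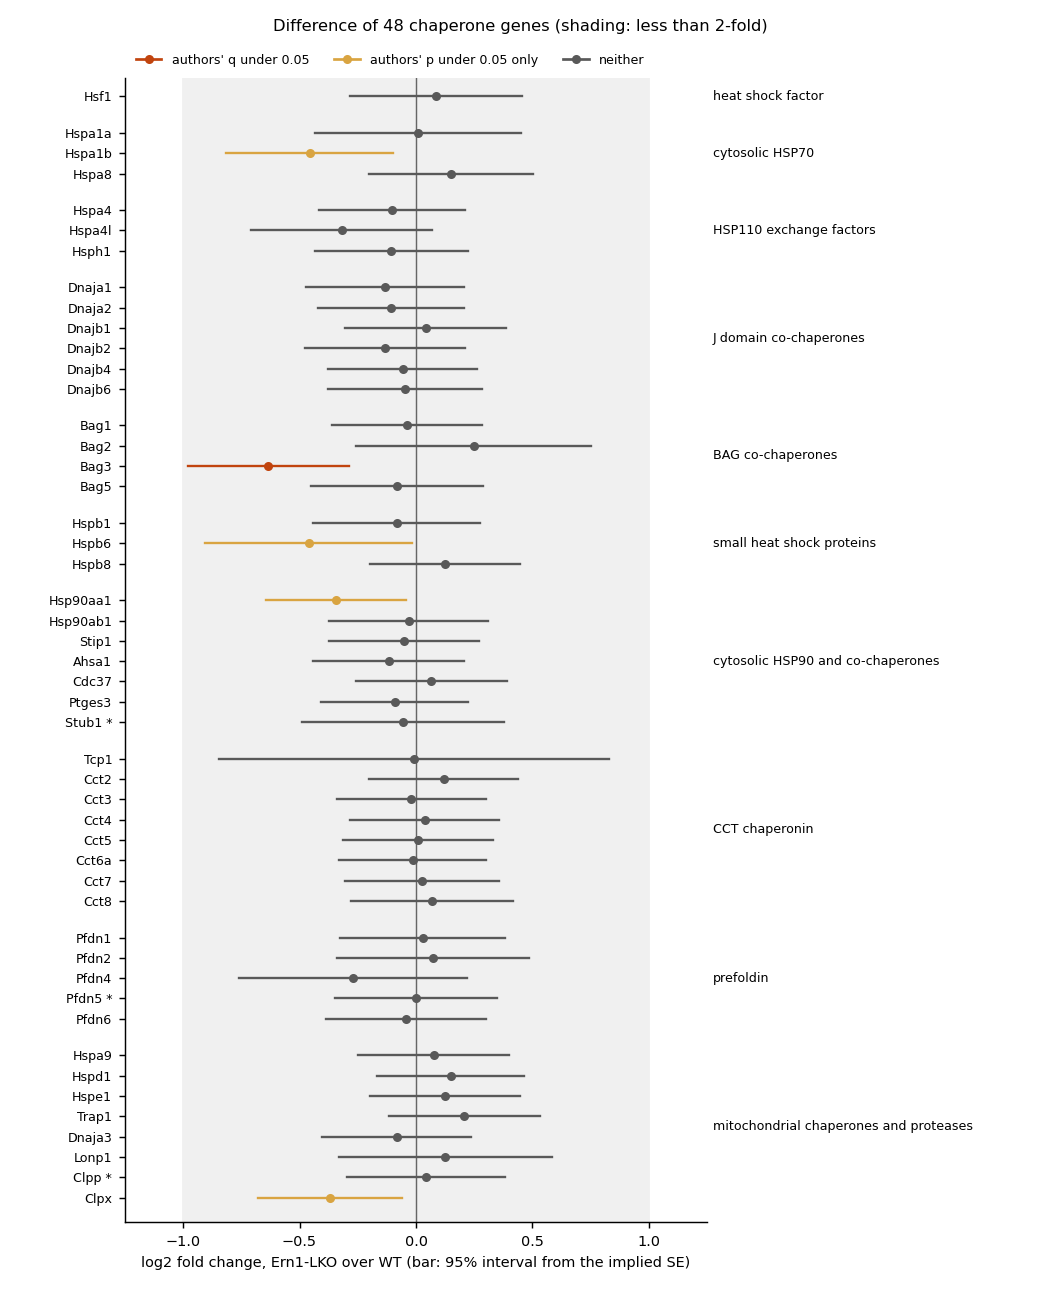
Log2 fold change of Ern1-LKO over WT for each of the 48 genes, from the authors' deposited table, on the x axis, with genes grouped by role on the y axis; points are the authors' values, bars the 95% intervals from the implied SE, and shading marks less than 2-fold. Bag3 (red) is the only call, 4 genes (ochre) pass only the unadjusted p, and every interval stays inside the shading.

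The BAG co-chaperones release HSP70 from its client proteins. Bag3, which also links HSP70 to small heat shock proteins and to autophagy, fell in Ern1-LKO livers and was at 11.7 FPKM in Ern1-LKO livers and 18.2 FPKM in WT livers. The ratio was 0.645. By the authors' deposited table Bag3 has a log2 fold change of -0.63, with an SE of 0.18 implied by the statistic, p = 0.0008 and q = 0.0339. Its interval ran between -0.98 and -0.29. Bag3 lies at chr7:128523583-128546979 (mm10, + strand), no annotated exon of another gene overlaps its exons, and none of its 50-base windows recurs in another gene's transcript. Bag1, the most abundant of the family, was at 57.0 FPKM in Ern1-LKO livers and 58.6 FPKM in WT livers. Bag5 was at 7.19 and Bag2 at 2.04 FPKM in Ern1-LKO livers, against 7.60 and 1.72 FPKM in WT livers, and neither was called. Differences between Bag3 and the other BAG genes were not tested.

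Cytosolic HSP70 is represented by a constitutive gene and a pair of inducible ones. Hspa8, the constitutive form, had the highest level of the whole set, 586 FPKM in Ern1-LKO livers and 528 FPKM in WT livers. It ranked 179th among tested loci in Ern1-LKO livers and 192nd in WT livers, and it held 97.0% of the summed Hspa8, Hspa1a and Hspa1b FPKM in Ern1-LKO livers and 95.6% in WT livers. Hspa1b, a heat-inducible HSP70, was at 15.6 FPKM in Ern1-LKO livers and 21.4 FPKM in WT livers. In the authors' deposited table its log2 fold change is -0.46 (implied SE 0.18) at a q of 0.231, so it did not pass, although its unadjusted p is 0.0135. The neighbouring copy Hspa1a was at 2.79 FPKM in Ern1-LKO livers and 2.77 FPKM in WT livers. Both copies lie on chromosome 17, and 62.3% of the 50-base windows of Hspa1b also occur in Hspa1a, so the split of reads between them is uncertain. Their sum was 18.4 FPKM in Ern1-LKO livers and 24.2 FPKM in WT livers. For Hspa8, 73.2% of such windows recur in other annotated genes, most of them in the single gene Gm15459, and how such reads were assigned is not stated there or in the labels.

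The HSP110 proteins exchange nucleotide on HSP70. Hspa4 was at 30.4 FPKM in Ern1-LKO livers and 32.7 FPKM in WT livers, Hsph1 at 15.5 FPKM in Ern1-LKO livers and 16.7 FPKM in WT livers, and Hspa4l at 3.52 FPKM in Ern1-LKO livers and 4.38 FPKM in WT livers. All 3 lay below WT, Hspa4l by the most at a log2 fold change of -0.32 in the authors' deposited table (p = 0.131), and none was called. J proteins hand unfolded chains to HSP70 and start its ATP cycle. Dnaja1 was at 53.0 FPKM in Ern1-LKO livers and 58.1 FPKM in WT livers, and Dnaja2 at 37.5 FPKM in Ern1-LKO livers and 40.5 FPKM in WT livers. Dnajb1, the main heat-inducible J protein of the cytosol, was at 13.0 FPKM in Ern1-LKO livers and 12.6 FPKM in WT livers. Dnajb6, a suppressor of protein aggregation, was at 37.6 FPKM in Ern1-LKO livers and 38.9 FPKM in WT livers, and Dnajb2 at 25.7 FPKM in Ern1-LKO livers and 28.2 FPKM in WT livers. Of the 6 J protein genes 5 lay below WT, with log2 fold changes in the authors' deposited table that ran from -0.13 to 0.04, and none was called.

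Hsf1, the factor that drives the heat shock response, was at 8.17 FPKM in Ern1-LKO livers and 7.70 FPKM in WT livers, with p = 0.652 in the authors' deposited table. A list of 20 HSF1 target genes, 15 of them members of the chaperone set, had 1 gene called lower (Bag3) and 0 called higher. That is 5% of the list, against 2.74% of tested loci. The median of the list was -0.07 on the log2(FPKM + 1) scale, with 8 genes above WT and 12 below. Serpinh1, the collagen chaperone of the ER and an HSF1 target, was at 8.30 FPKM in Ern1-LKO livers and 5.53 FPKM in WT livers (q = 0.0827 by the authors' deposited table, with an unadjusted p of 0.0028).

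Promoter sequence was read for the genes whose values differed most and for those with heat shock elements, the binding motif of HSF1. RefSeq promoters (GRCm38.p6, 250 bases before to 50 after each start) were matched by symbol for 41 of the 48 genes. The 3-unit element, searched on both strands as TTC, GAA and TTC or as GAA, TTC and GAA with 2 free bases between units, was found at Hspd1, Hspe1, Hsph1 and Dnajb6, which is 9.76% of the 41 genes, against 0.590% of 9498 genes of tested loci. A 2-unit form, GAANNTTC or TTCNNGAA on both strands and contained in the longer one, was found for 18 of the 41 (43.9%) and for 14.3% of genes of tested loci. The ER stress element, CCAAT and CCACG with 9 free bases between them on either strand, was found at 0 of the 41 genes, at 7 of 19 ER chaperone genes (36.8%) and at 0.168% of genes of tested loci. The XBP1 element TGACGTGG, on either strand, was found at 0 of the 41 and 0 of the 19, against 1.02% of genes of tested loci. The 250 bases before the start are given 5′ to 3′ on the gene's strand. Capitals mark 2-unit heat shock elements for Bag3, Hspa1b and Hspb6, 3-unit elements for Hspd1 and Dnajb6, and ER stress elements for Creld2 and Dnajc3, which are shown as ER genes called lower in Ern1-LKO livers.
Bag3, chr7:128523333-128523582 (+): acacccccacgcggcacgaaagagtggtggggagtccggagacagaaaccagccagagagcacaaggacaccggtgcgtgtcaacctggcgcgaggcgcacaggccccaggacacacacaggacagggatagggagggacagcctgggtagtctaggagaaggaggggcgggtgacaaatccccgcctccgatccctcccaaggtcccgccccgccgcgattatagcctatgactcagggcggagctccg
Hspa1b, chr17:34959239-34959488 (-): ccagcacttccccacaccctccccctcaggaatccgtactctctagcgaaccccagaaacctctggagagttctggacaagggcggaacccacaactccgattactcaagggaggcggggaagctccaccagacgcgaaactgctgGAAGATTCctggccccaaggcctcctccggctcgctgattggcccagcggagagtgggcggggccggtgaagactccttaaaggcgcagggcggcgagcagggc
Hspb6, chr7:30553051-30553300 (+): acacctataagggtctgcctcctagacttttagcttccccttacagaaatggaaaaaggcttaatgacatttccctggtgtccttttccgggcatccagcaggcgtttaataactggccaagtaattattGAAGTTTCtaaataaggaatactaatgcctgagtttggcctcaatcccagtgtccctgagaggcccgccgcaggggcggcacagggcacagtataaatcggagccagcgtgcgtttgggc
Hspd1, chr1:55087933-55088182 (-): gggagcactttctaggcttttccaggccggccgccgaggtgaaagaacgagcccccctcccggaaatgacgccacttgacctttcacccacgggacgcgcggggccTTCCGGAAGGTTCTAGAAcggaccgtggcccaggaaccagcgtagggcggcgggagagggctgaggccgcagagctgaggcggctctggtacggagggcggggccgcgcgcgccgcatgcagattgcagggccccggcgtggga
Dnajb6, chr5:29735648-29735897 (+): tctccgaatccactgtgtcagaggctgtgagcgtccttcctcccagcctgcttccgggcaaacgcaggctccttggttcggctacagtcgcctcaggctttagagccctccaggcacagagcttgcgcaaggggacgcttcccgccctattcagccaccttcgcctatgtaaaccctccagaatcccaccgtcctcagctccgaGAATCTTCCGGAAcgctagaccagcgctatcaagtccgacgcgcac
Creld2, chr15:88819396-88819645 (+): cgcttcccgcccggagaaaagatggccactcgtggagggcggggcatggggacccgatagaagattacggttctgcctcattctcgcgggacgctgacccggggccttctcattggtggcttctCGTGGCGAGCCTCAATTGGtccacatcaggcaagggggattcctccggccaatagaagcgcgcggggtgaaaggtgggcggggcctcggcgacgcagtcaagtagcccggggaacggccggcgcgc
Dnajc3, chr14:118937682-118937931 (+): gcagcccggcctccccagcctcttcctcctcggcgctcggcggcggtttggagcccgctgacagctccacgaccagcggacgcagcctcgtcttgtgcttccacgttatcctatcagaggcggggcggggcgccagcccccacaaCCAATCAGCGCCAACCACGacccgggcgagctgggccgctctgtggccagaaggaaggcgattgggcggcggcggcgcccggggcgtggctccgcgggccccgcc

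The Bag3 stretch holds no match, and 1 match to the 2-unit form lies after its start, at bases 43 to 50. Hspa1b holds 1 match at bases -104 to -97 relative to its start, and Hspb6 holds 1 at bases -120 to -113. The match at Dnajb6 lies at bases -46 to -34 from the start shown. At Hspd1 a pair of overlapping 3-unit matches forms a run of 18 bases, chr1:55088059-55088076, that ends 127 bases from the Hspd1 start and 72 bases from the start of Hspe1 on the opposite strand. It is the same run that was found for both genes. The match at Hsph1 lies after both of its listed starts. None of the 4 genes with a 3-unit element was called, and their log2 fold changes in the authors' deposited table are 0.15 for Hspd1, 0.12 for Hspe1, -0.11 for Hsph1 and -0.05 for Dnajb6. Of the 7 ER genes with an ER stress element, Creld2 and Dnajc3 were called lower, while Hspa5, Hsp90b1, Pdia6 and the combined loci of Calr and Canx were not called. Dnajb9, P4hb, Sdf2l1 and Uggt1, also called lower, held no match in these windows, and Hyou1 was not among the 19 genes searched. A match is a description of the letters and does not show binding.

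Small heat shock proteins hold unfolding chains without using ATP. Hspb6, best known from muscle, was at 9.08 FPKM in Ern1-LKO livers and 12.5 FPKM in WT livers. Its log2 fold change is -0.46 (SE 0.23) at p = 0.0491 and q = 0.481 by the authors' deposited table. Hspb8, the partner of Bag3, was the most abundant of the family at 77.0 FPKM in Ern1-LKO livers and 70.6 FPKM in WT livers, and Hspb1 was at 27.8 FPKM in Ern1-LKO livers and 29.5 FPKM in WT livers. Neither was called. Among the related genes outside the set, the muscle chaperone Cryab was at 6.28 FPKM in Ern1-LKO livers and 5.84 FPKM in WT livers, and Hspb7 at 0.69 FPKM in Ern1-LKO livers and 0.30 FPKM in WT livers (q = 0.0711 by the authors' deposited table, with an unadjusted p of 0.0023). Of 11 smooth muscle markers, 4 were called higher (36.4%, against 1.58% of tested loci) and all 11 lay above WT. Their sum was 56.6 FPKM in Ern1-LKO livers and 30.0 FPKM in WT livers, with single genes between 0.34 and 15.4 FPKM in Ern1-LKO livers, between 0.12 and 12.3 FPKM in WT livers, and none listed at 0. The 6 skeletal muscle markers lay above WT without a call. The part of muscle RNA in the values of Hspb6, Hspb7 and Cryab was not tested.

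HSP90 matures kinases and nuclear receptors. Hsp90ab1, the constitutive form, was at 375 FPKM in Ern1-LKO livers and 383 FPKM in WT livers. Hsp90aa1, the inducible form, was at 60.4 FPKM in Ern1-LKO livers and 76.6 FPKM in WT livers, with a log2 fold change of -0.34 (SE 0.15) at p = 0.0389 and q = 0.425 by the authors' deposited table. The 2 transcripts share no 50-base window, although 58.5% of those of Hsp90aa1 recur in other genes, mostly in Gm12346. The co-chaperones Stip1, which joins HSP70 to HSP90, Ahsa1, which speeds its ATPase, Cdc37, which brings kinases, and Ptges3, which steadies the closed form, were not called, with log2 fold changes from -0.12 to 0.07 in the authors' deposited table. Ptges3 was the most abundant of the 4, at 63.9 FPKM in Ern1-LKO livers and 68.1 FPKM in WT livers. Ahsa1 was at 49.6 FPKM in Ern1-LKO livers and 53.8 FPKM in WT livers, Stip1 at 35.1 FPKM in Ern1-LKO livers and 36.4 FPKM in WT livers, and Cdc37 at 35.1 FPKM in Ern1-LKO livers and 33.5 FPKM in WT livers. The ubiquitin ligase Stub1 lies in a combined locus with Rhbdl1, Rhot2 and Wdr90, which stood at 49.0 FPKM in Ern1-LKO livers and 51.0 FPKM in WT livers and does not give Stub1 alone.

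**Figure D2:**
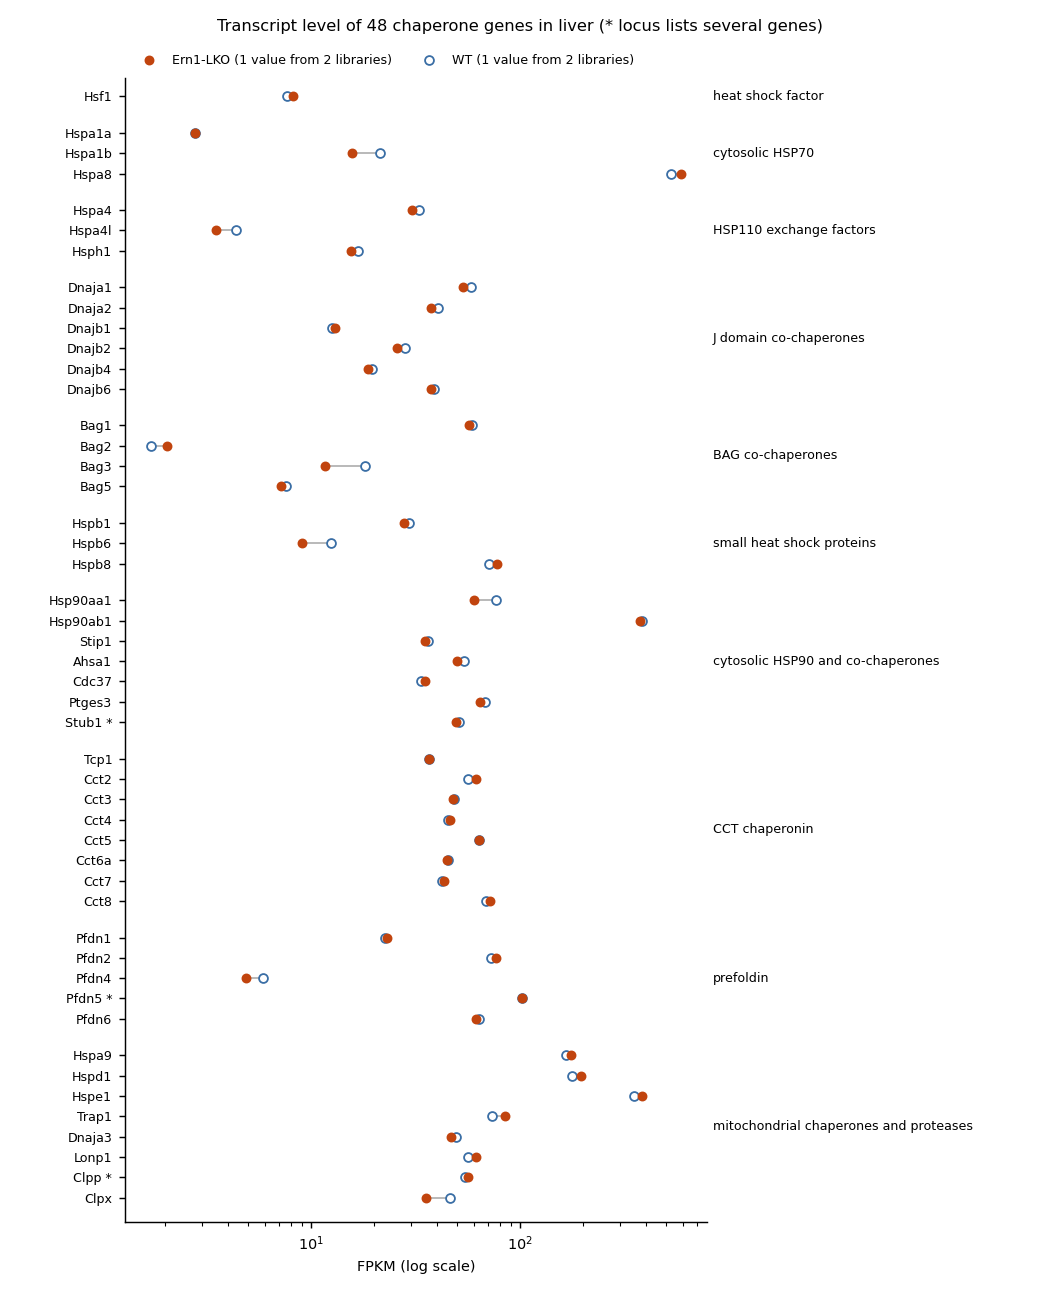
FPKM (x axis, log scale) of each of the 48 genes (y axis, grouped by role) in Ern1-LKO livers (filled) and WT livers (open), 1 value per genotype. Levels run from 2.04 FPKM (Bag2) to 586 FPKM (Hspa8) in Ern1-LKO livers, and the pairs of points lie close together except at genes such as Bag3, Hspa1b, Hspb6, Hsp90aa1 and Clpx.

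The CCT chaperonin is a double ring built from 8 different subunits in equal number. Subunit levels lay in a narrow range, from 36.6 FPKM (Tcp1) to 71.9 FPKM (Cct8) in Ern1-LKO livers and from 36.8 FPKM (Tcp1) to 68.5 FPKM (Cct8) in WT livers. The coefficient of variation over subunits was 23.5% in Ern1-LKO livers and 21.6% in WT livers, and the mean was 51.9 FPKM in Ern1-LKO livers and 50.7 FPKM in WT livers. None of the 8 was called, and their log2 fold changes in the authors' deposited table ran from -0.02 (Cct3) to 0.12 (Cct2), with 5 above 0. Cct5 was at 63.8 FPKM in Ern1-LKO livers and 63.4 FPKM in WT livers, and Cct2 at 61.2 FPKM in Ern1-LKO livers and 56.4 FPKM in WT livers. The other subunits, Cct3, Cct4, Cct6a and Cct7, lay between 43.0 and 47.5 FPKM in Ern1-LKO livers and between 42.3 and 48.1 FPKM in WT livers. Tcp1 had the widest interval of the set, -0.85 to 0.83, and its locus also holds Mrpl18, whose exons overlap those of Tcp1 on the opposite strand.

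Prefoldin, which delivers actin and tubulin to CCT, was less even. Among the 4 subunits with loci that name no other gene, Pfdn2 was the highest at 76.4 FPKM in Ern1-LKO livers and 72.5 FPKM in WT livers. Pfdn4 was the lowest at 4.89 FPKM in Ern1-LKO livers and 5.90 FPKM in WT livers, with p = 0.285 in the authors' deposited table. The highest stood 15.6 times above the lowest in Ern1-LKO livers and 12.3 times in WT livers. Opposite-strand exons cover 27.6% of the exonic bases of Pfdn2 and 28.7% of those of Pfdn4, and strand-specific counting is not stated in the labels. Pfdn6 was at 61.8 FPKM in Ern1-LKO livers and 63.7 FPKM in WT livers, Pfdn1 at 23.0 FPKM in Ern1-LKO livers and 22.6 FPKM in WT livers, and the combined locus of Pfdn5 and Myg1 at 101 FPKM in both. None was called.

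None of the 8 mitochondrial chaperone and protease genes was called, beside 2.74% of tested loci. Of the 8, 6 had log2 fold changes above 0, among them Lonp1 and the combined locus of Clpp, and of the 5 chaperones without the proteases 4 did. Over all tested loci, 6378 of 13320 lay above 0, and 2844 of the 6872 that reach 5 FPKM did. The median of the 8 was 0.10 on the log2(FPKM + 1) scale, beside -0.04 for the 40 other members and -0.01 over all tested loci. Over tested loci that reach 5 FPKM the median was -0.03. Hspe1 (HSP10) was at 383 FPKM in Ern1-LKO livers and 351 FPKM in WT livers, and Hspd1 (HSP60) at 196 FPKM in Ern1-LKO livers and 177 FPKM in WT livers. This divergent gene pair kept a ratio of Hspe1 to Hspd1 of 1.95 in Ern1-LKO livers and 1.99 in WT livers. Hspa9, the mitochondrial HSP70 of protein import, was at 175 FPKM in Ern1-LKO livers and 166 FPKM in WT livers, and Trap1 at 84.8 FPKM in Ern1-LKO livers and 73.4 FPKM in WT livers (log2 fold change 0.21, p = 0.205 in the authors' deposited table). Dnaja3, the J protein of the matrix, was at 46.7 FPKM in Ern1-LKO livers and 49.5 FPKM in WT livers. Of the transcripts of Hspd1 and Hspe1, 44.8% and 36.1% of 50-base windows recur in other genes, pseudogenes among them.

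None of the proteases of the mitochondrial matrix was called. Clpx, the ATP-driven unfoldase that feeds the peptidase Clpp, was at 35.6 FPKM in Ern1-LKO livers and 45.9 FPKM in WT livers, with a log2 fold change of -0.37 (SE 0.16) at p = 0.026 and q = 0.338 by the authors' deposited table. Lonp1 was at 61.7 FPKM in Ern1-LKO livers and 56.5 FPKM in WT livers, and the combined locus of Clpp and Alkbh7 at 56.1 FPKM in Ern1-LKO livers and 54.4 FPKM in WT livers. Differences between the proteases were not tested. Of 15 further genes listed under mitochondrial folding and proteolysis, which include Grpel1, the exchange factor of Hspa9, and the peroxisomal Lonp2, none was called and 10 lay above WT, with a median of 0.05 on the log2(FPKM + 1) scale. Of 3 transcription factors tied to the mitochondrial stress response, 1 was called (33.3%, against 2.74% of tested loci). Atf5 fell to 107 FPKM in Ern1-LKO livers, against 159 FPKM in WT livers, with q = 0.0493 in the authors' deposited table. Atf4 was at 46.9 FPKM in Ern1-LKO livers and 67.5 FPKM in WT livers (q = 0.0559), and Ddit3 at 10.3 FPKM in Ern1-LKO livers and 6.60 FPKM in WT livers (q = 0.924), both from the authors' deposited table.

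A wider set of 55 chaperone and related genes outside the ER, proteases included, gave 1 call, Fkbp5, the HSP90-bound immunophilin of the glucocorticoid receptor. That is 1.82% of the set, against 2.74% of tested loci. Fkbp5 rose to 18.2 FPKM in Ern1-LKO livers, against 6.30 FPKM in WT livers, with a log2 fold change of 1.53 (SE 0.18) at q = 0.00343 by the authors' deposited table. Its homologue Fkbp4, which binds the same receptor complexes, was at 59.4 FPKM in Ern1-LKO livers and 71.4 FPKM in WT livers (p = 0.103 in the authors' deposited table). The median over the 55 genes was 0.01 on the log2(FPKM + 1) scale, with 29 above WT and 26 below.

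A list of ER genes that is wider than the relatives of the families above gave other counts. Of 22 ER chaperone and J protein genes, 7 were called lower and 0 higher, namely Dnajb9, P4hb, Creld2, Sdf2l1, Hyou1, Dnajc3 and Uggt1. That is 31.8% of the list, against 1.16% of tested loci called lower. Among those called, Dnajb9, Hyou1 and Dnajc3 belong to families that the cytosolic and mitochondrial set also holds. P4hb, Creld2, Sdf2l1 and Uggt1 have no counterpart in that set, so the share does not compare like families. The median of the 22 was -0.37 on the log2(FPKM + 1) scale. These ER genes were already known from earlier results of the same data, and the difference between the 2 lists was not tested. Summed over loci of single genes, the 18 ER genes held 1353 FPKM in Ern1-LKO livers and 1841 FPKM in WT livers, whereas the 45 cytosolic and mitochondrial genes held 3222 FPKM in Ern1-LKO livers and 3151 FPKM in WT livers. Single abundant genes weigh heavily in the difference of each sum. P4hb alone was at 187 FPKM in Ern1-LKO livers and 453 FPKM in WT livers, and Hspa8 at 586 and 528 FPKM.

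**Figure D3:**
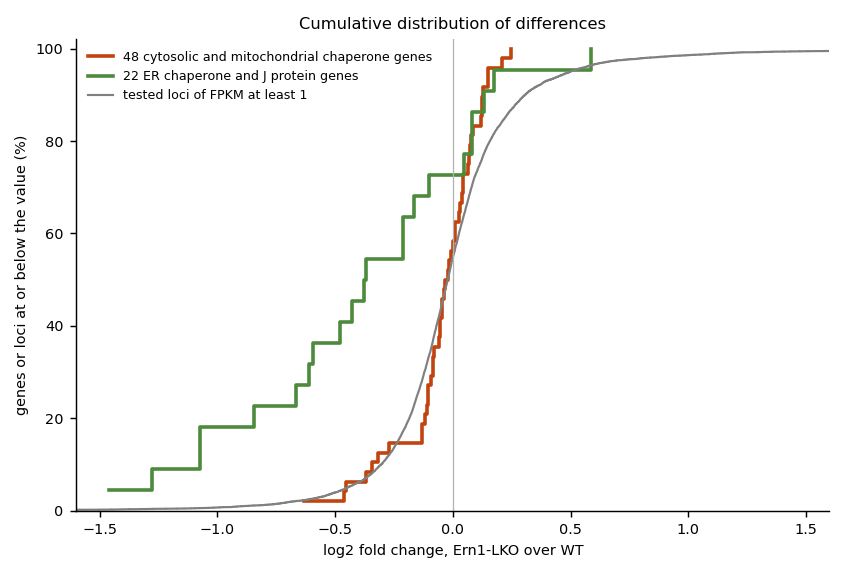
Cumulative share of genes or loci (y axis, %) at or below each log2 fold change of Ern1-LKO over WT (x axis, from the authors' deposited table), for the 48 chaperone genes, the 22 ER genes and the tested loci that reach 1 FPKM. The chaperone curve is steep around 0, the median of the ER genes is at -0.37, and the curves cross at the upper end, where Serpinh1 of the ER lies at 0.59.

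Within families, each compartment could be set side by side. For HSP110 the ER form Hyou1 fell to 21.6 FPKM in Ern1-LKO livers, against 38.8 FPKM in WT livers, a log2 fold change of -0.85 in the authors' deposited table. The cytosolic Hspa4 and Hsph1 differed from it by 0.74 and 0.74 on the log2 scale, with SEs of 0.23 and 0.24 when the errors of 2 genes are taken as independent. For J proteins Dnajb9, a co-chaperone of the ER lumen, fell to 15.4 FPKM in Ern1-LKO livers, against 42.5 FPKM in WT livers, and the cytosolic Dnajb4 at 18.7 FPKM in Ern1-LKO livers and 19.5 FPKM in WT livers differed from it by 1.41 (SE 0.24) on that scale. Dnajb9 had the lowest log2 fold change of the ER list, so this difference does not stand for ER J proteins in general. Dnajc3 was at -0.61 (called), Sec63 at -0.43, Dnajc10 at -0.10 and Dnajc1 at 0.17 (none of these 3 called). For HSP70 and HSP90 neither ER form was called. Hspa5 was at 237 FPKM in Ern1-LKO livers and 274 FPKM in WT livers, and Hsp90b1 at 282 FPKM in Ern1-LKO livers and 273 FPKM in WT livers. On the log2 scale, Hspa8 differed from Hspa5 by 0.36 (SE 0.25) and the mitochondrial Hspa9 by 0.29 (SE 0.24). From Hsp90b1, the cytosolic Hsp90aa1 differed by -0.39 (SE 0.23), Hsp90ab1 by -0.08 (SE 0.24) and the mitochondrial Trap1 by 0.16 (SE 0.23). The 95% range of each of these 5 differences (cytosolic or mitochondrial minus ER) includes 0. For Dnajb11 no value of its own could be given, because its locus is combined with the abundant plasma protein gene Ahsg.

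**Figure D4:**
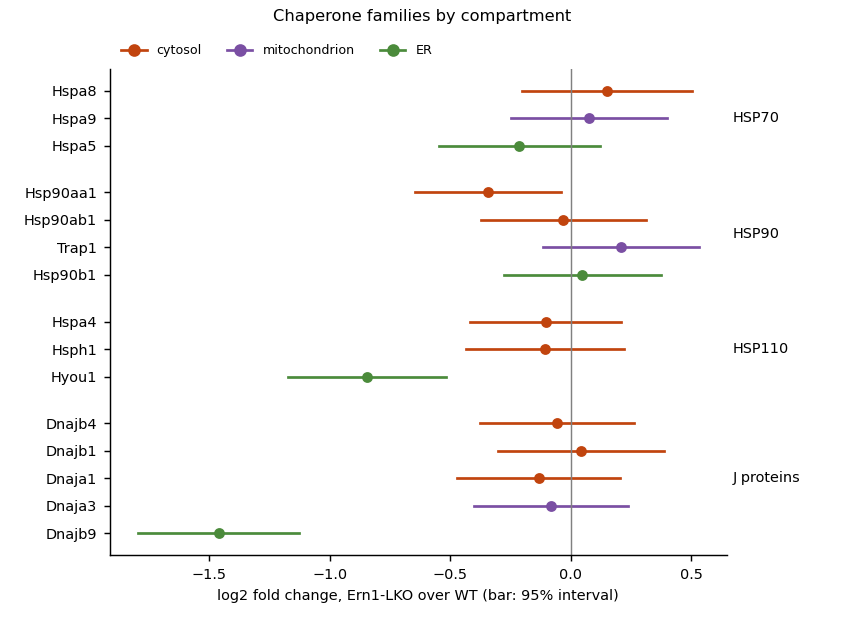
Log2 fold change of Ern1-LKO over WT (x axis, from the authors' deposited table, bars 95% intervals from the implied SE) for members of 4 chaperone families (y axis), coloured by compartment. Hyou1 and Dnajb9 of the ER lie below their cytosolic relatives, at -0.85 and -1.46, whereas the intervals of Hspa5 and Hsp90b1 overlap those of their relatives. Dnajb9 is the lowest of the ER list, and other ER J proteins are not drawn.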

How the data were processed

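Liver RNA was isolated with RNAiso and sequenced from NEBNext Ultra libraries, 2 per genotype, per the labels' protocols. The submitters' processing notes name the build mm10 and the tools Cufflinks 2.2.1, TopHat2 2.0.14, FastQC 0.11.3 and bcl2fastq without their roles; strand setting, annotation and normalisation were not given in the sources used here. The authors' deposited table gives each locus 1 FPKM value per genotype. Further columns, per the file headers, are the authors' log2 fold change (coded knockout over WT), a test statistic used here as a signed score, the p-value and the q-value. FPKM keeps no depth, so no counting interval was computed, and with 1 value per genotype no test across animals was run.

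A gene was called at the authors' q under 0.05, which is adjusted over the whole table. The implied SE divides the fold change on the natural log scale by the statistic, without signs. It was then used as the SE of the log2 fold change, and that scaling was assumed. The log2 fold change over this SE, without sign, was compared with the z of the authors' p. This quotient, which is not the statistic itself, was 1.03 times z at the median of 42 members (0.987 to 1.08). It lay further from z where p is smallest, with a ratio of 2.13 at Fkbp5. The authors' p was the same, 5e-05, at Fkbp5 and at Hyou1, where the ratio was 1.24. Where p stops at such a value, the ratio cannot check the SE. Starts were raised by 1 to be 1-based. Shared windows and exon overlaps were computed from GENCODE M21 transcripts and exons (same build), with a window of 50 bases as the read length is unknown. The 48 members and the further lists were chosen with earlier results of these data known. Genes named are the called members, those with p under 0.05, the 2 most abundant of each role group, the compartment pairs and called genes of the further lists; other genes complete a count or a family. The scripts for calls and intervals were run on simulated fold changes of known size. The noise there was drawn from the implied SE itself. That run therefore checks the code and cannot check the SE, its scaling or the spread between mice. Software was matplotlib 3.10.9, scipy 1.17.1, pandas 2.3.3 and numpy 2.4.6 under Python 3.11.15.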

Additional observations from a re-analysis of the deposited data

How the results depend on the processing

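No chaperone gene was called higher under any setting run: a q under 0.01, an unadjusted p under 0.05, adjustment over loci that reach 1 FPKM, a 1.5-fold minimum, a 5 FPKM minimum, single-gene loci, and a normal approximation with or without centring (the last chosen after seeing the data). The q under 0.01, the fold and FPKM minimums and the single-gene loci can only drop calls, so 0 higher was certain there. The 1 lower call, Bag3, held under all the settings except a q under 0.01, where 0 were called, and with the unadjusted p there were 5. The unadjusted p can only add calls. Bag3 has a ratio of 0.645, 11.7 FPKM in Ern1-LKO livers and a locus that names 1 gene. The fold, FPKM and single-gene settings therefore could not drop it, and the normal approximations reuse the authors' statistic. The median log2 change of the set ran from -0.03 to -0.01 over 7 alternatives. For 38 named genes, 114 recomputed changes (pseudocounts of 0.1 and 0.5, and centring) each moved by less than the implied SE and none turned sign among called genes. Centring used a median of -0.02, far smaller than the lowest member SE of 0.15, so it could not give another outcome. The lowest FPKM among the named genes was 6.30 (Fkbp5 in WT livers). Pseudocounts of 1 or less therefore had little room to give another outcome either. No paired analysis was possible because each genotype has a single column; for the same reason the replicate block and leaving out each replicate were not run. Unknown depth and the missing spread between animals limit every value given.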
